A study of Rattus norvegicus with 3 samples.

Results

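The cytochrome P450 genes of the rat were measured in M13, a line of induced pluripotent stem (iPS) cells, and in adult rat cells, on 3 two-colour whole-genome arrays. Every array gene whose name starts with Cyp and a digit was taken as a member, which gave 66 of the 35496 genes on the array, in 17 families and with 79 probes. Array names are used here, and 19 of the genes now carry another RefSeq symbol. Of these 66 genes, 25 were bright enough in at least 1 RNA to be tested, or 37.9%, beside 20342 (57.3%) of all genes on the array. An iPS line is made from adult cells that have been returned to a state like that of embryonic stem cells. The M13 cells were untreated, are 1 line, and grew on a feeder layer of irradiated mouse embryonic fibroblasts in medium with serum and a serum replacement. The adult RNA, called mix1, joined untreated rat bone marrow cells and primary fibroblasts of the ear, both cultured in medium with fetal bovine serum. The labels give no strain, age or sex for either RNA, nor the proportions of the 2 adult cell types. Each array carried 1 of 3 iPS M13 samples in Cy3 and the same mix1 in Cy5, and no array had the dyes swapped, so the dyes and the RNAs cannot be told apart. Whether the 3 samples were grown separately is not given in the labels, and p-values may therefore reflect technical spread alone. RNA of the mouse feeder cells may have been present, and its share in any signal was not tested.

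P450 enzymes hold a heme group and insert an oxygen atom from molecular oxygen into fats, sterols, vitamins and foreign compounds. Those of the endoplasmic reticulum take their electrons from P450 reductase, and those of mitochondria from ferredoxin. Families are numbered by the likeness of their proteins. Families 1 to 3 mainly handle drugs and other foreign compounds and are known above all from the liver, whereas most other families have a narrow role, such as making cholesterol, bile acids, steroid hormones or active vitamin D, or removing retinoic acid. Cultured fibroblasts are known for high Cyp1b1, and stem cells for tight control of retinoic acid, which drives their differentiation.

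P450 genes arose by repeated duplication, so probes of 8 genes the results turn on are shown with the longest run of letters, in capitals, that each shares with a probe for another P450 gene. Over all 79 probes this run was 7 to 13 bases long, with a median of 9, out of 60 bases. The probes of Cyp2c7, Cyp2j9, Cyp39a1, Cyp7b1, Cyp4b1, Cyp27a1, Cyp2d22 and Cyp51 follow, written 5′ to 3′ with their positions in build rn3. The Cyp2c7 probes are in order of falling position on the chromosome, which need not be that of the transcript, and of the last of them and of Cyp2j9 only the first 30 bases are given.
Cyp2c7, first probe, chr7_random:582344-582403: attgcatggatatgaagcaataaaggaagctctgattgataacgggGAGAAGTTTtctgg
Cyp2c7, next probe, chr7_random:582002-582061: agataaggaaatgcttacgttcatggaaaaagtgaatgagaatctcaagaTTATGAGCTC
Cyp2c7, next probe, chr7_random:579422-579481: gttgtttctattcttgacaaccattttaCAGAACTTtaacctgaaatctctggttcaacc
Cyp2c7, last probe, chr7_random:579172-579231: gaaagcacatgcagTTTCTGGAgttatagc
Cyp2j9, chr5:116749568-116749627: gacatcttgcAGAGAAAAATgattcttcca
Cyp39a1, chr9:12947598-12947657: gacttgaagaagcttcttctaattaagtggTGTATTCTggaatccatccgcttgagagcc
Cyp7b1, chr2:103049034-103049093: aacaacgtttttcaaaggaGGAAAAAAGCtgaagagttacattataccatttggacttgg
Cyp4b1, chr5:135927472-135927531: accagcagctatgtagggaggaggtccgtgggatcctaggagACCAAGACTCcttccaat
Cyp27a1, chr9:74214754-74214813: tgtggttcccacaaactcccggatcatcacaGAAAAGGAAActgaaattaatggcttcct
Cyp2d22, chr7:120777448-120777507: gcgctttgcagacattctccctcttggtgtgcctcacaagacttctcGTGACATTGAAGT
Cyp51, chr4:26775187-26775246: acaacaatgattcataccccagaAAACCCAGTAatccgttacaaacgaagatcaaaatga
The capitals are short in every probe shown. An exact run misses likeness broken by single mismatches, so short capitals do not show that a probe is specific. The Cyp2d22 probe shares the longest run, 13 bases, with a probe of Cyp2d10, another member of its subfamily. Probes were set against each other here and not against whole transcripts. For 32 of the 79 probes the array files list more than 1 RefSeq transcript, so closely related transcripts could add to the same spot.

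Most P450 genes were dim in both RNAs by the stricter flag of the scanner software. Of the 66 genes, 36 (54.5%) were dim in both RNAs, meaning that no probe of the gene was well above background on any array, as the scanner software judged it. Over all genes on the array this share was 33.3%, and over the genes with a symbol 26.5%. By the software's less strict flag, for signal over background, 20 of the 66 were dim in both, so most gave some signal. The share of all genes by that flag is not given here. A further 14 P450 genes (21.2%) were well above background in both RNAs on all 3 arrays, against 44.5% of all genes. In iPS M13 alone 5 genes were measured, namely Cyp1a1, Cyp2j9, Cyp39a1, Cyp4f4 and Cyp2r1. In mix1 alone 4 were measured, namely Cyp3a13, Cyp4b1, Cyp7b1 and Cyp26a1, and Cyp2d22 and Cyp27a1 were measured in mix1 with iPS M13 above background on 1 array. The last 5 genes, Cyp1a2, Cyp2d10, Cyp2e1, Cyp2u1 and Cyp11b3, passed on some arrays only and were not tested.

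The dim genes had signals from the blank level upward, and some lay clearly above it. Signals, here and in what follows, are the mean brightness of a spot before background correction and scaling. The mean spot signals of their brightest probes ranged from 72.3 to 164 in iPS M13 (median 94.8) and from 60.9 to 149 in mix1 (median 74.9). Negative control spots had medians of 76.0 to 77.4 in iPS M13 and 60.9 to 63.7 in mix1. The median GC content of the probes was 41.7% for the dim genes and 40% for the tested ones. In bulk RNA, fewer cells of a type and less RNA per cell cannot be told apart. A dim spot shows only that the signal was not well above background on these arrays.

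**Figure D1:**
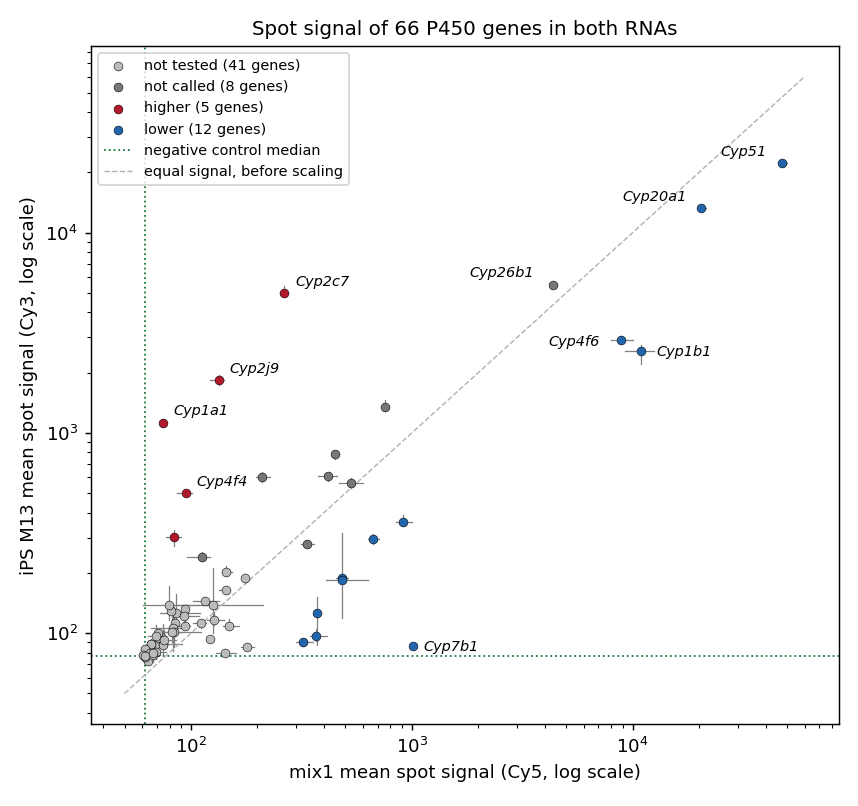
Mean spot signal of the 66 P450 genes in mix1 (horizontal, Cy5) and iPS M13 (vertical, Cy3), both on log scales, before scaling. Each point is the mean of 3 arrays on the gene's used or brightest probe, thin lines span the 3 arrays, and dotted lines mark the negative controls. The 41 genes not tested crowd at the lower left, Cyp7b1 lies near the iPS M13 blank level, and Cyp1a1 near the mix1 blank level.

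Of the 25 tested genes, 5 were higher in iPS M13, 12 were lower and 8 were not called. A gene was called when limma gave a Benjamini-Hochberg adjusted p under 0.05 over all genes tested and the mean ratio was at least 2-fold. Over all genes tested, 18.8% were called higher, 25.4% lower and 44.2% either way. The members' 20% higher lay near the share over all genes, and their 48% lower above it. No test of that difference was made, since the genes were chosen with results known. Log2 ratios, given throughout as iPS M13 over mix1, had a median of -0.74 for the tested P450 genes and -0.02 for all genes tested. The adjusted p alone was passed by 24 of the 25, and by 19544 of the 20342 genes tested. For the P450 genes as for all genes, nearly all calls thus turned on the fold. Only 1 gene stayed higher and 6 lower where both RNAs had to be well above background on all arrays. On the 3 arrays, 24 of the 25 genes kept 1 sign, and the SD between arrays ranged from 0.0102 to 0.520 with a median of 0.0675.

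**Figure D2:**
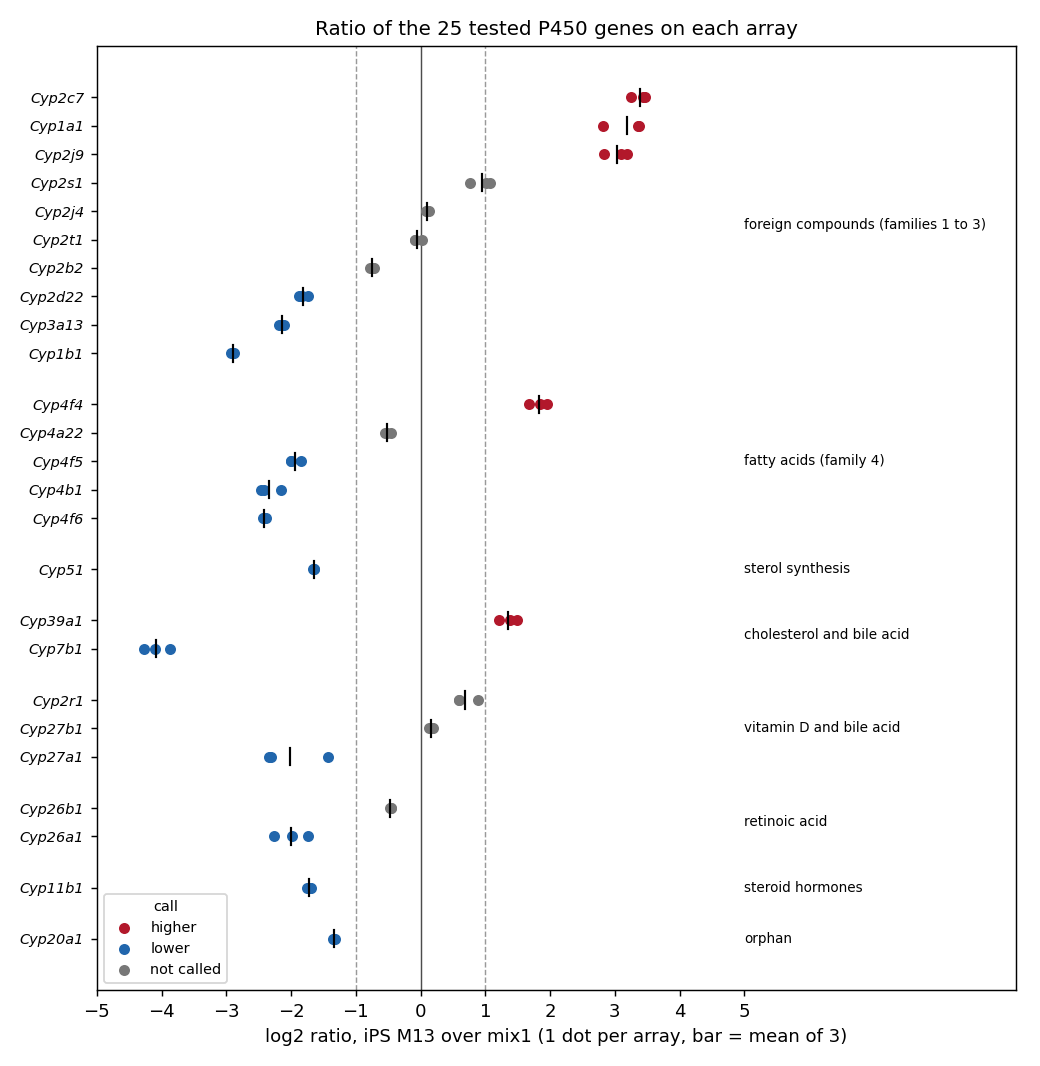
Log2 ratio of iPS M13 over mix1 on each of 3 arrays (dots) with the mean (bar) for the 25 tested P450 genes, grouped by role; dashed lines mark 2-fold. Cyp2c7 is the highest at a mean of 3.38 and Cyp7b1 the lowest at -4.08, and the dots of Cyp27a1 spread most.

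Families 1 to 3, which mainly oxidise foreign compounds, were mostly dim in both RNAs and otherwise mixed. Of 37 such genes (Cyp2r1 left aside, which acts on vitamin D), 23 were dim in both RNAs, 4 were measured in part, 3 were higher, 3 lower and 4 not called. In family 2, 19 of 30 genes were dim in both RNAs. These included 8 of 9 genes of subfamily 2c, all 3 genes of 2a, 3 of 4 of 2b, and the lone genes Cyp2f2, Cyp2g1 and Cyp2w1. In family 3, 4 of 5 genes were dim. Liver markers were mostly not bright enough to test. Of 10 hepatocyte genes on the array, 4 were dim in both RNAs, 5 were measured in part and 1 was tested, the iron carrier Tf, which was lower in iPS M13 (log2 ratio -3.03 ± 0.02, SD, n = 3).

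**Figure D3:**
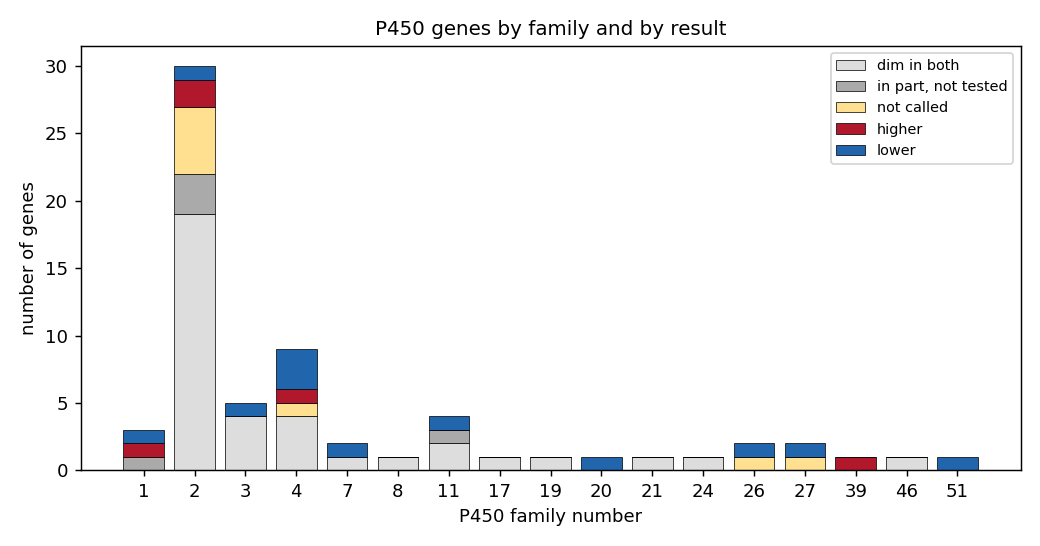
Number of P450 genes in each of 17 families, stacked by result. Family 2 holds 30 genes, of which 19 are dim in both RNAs, and 6 families (8, 17, 19, 21, 24 and 46) hold a single gene that is dim in both.

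Family 1 split in opposite directions. Cyp1a1, which oxidises polycyclic aromatic hydrocarbons and is the classical target of the aryl hydrocarbon receptor, had iPS M13 signals of 1065, 1169 and 1140.5 on replicates 1, 2 and 3. Its mix1 signals were 73.0, 74.8 and 76.1, not well above background on any array. The RNAs did not overlap, and mix1 lay near the blank level, somewhat above the negative control medians of 60.9, 61.2 and 63.7. The log2 ratios were 3.36, 2.82 and 3.38 (mean 3.19 ± 0.32 SD, n = 3, limma adjusted p = 7.97e-05), and the gene was at least 6.68-fold higher in iPS M13. For such a fold the dim RNA was set, array by array, to a floor, the lowest signal well above background, unless its own signal was higher. On replicate 2 the mix1 floor was only 4.72 (log2), against 7.35 and 7.14 on replicates 1 and 3. Where the dim signal lay above its floor, the fold is the plain ratio and no bound. The array carries this probe in 10 spots, 9 of which were usable on replicate 1, and the SD between spots within an array was 0.113, 0.0891 and 0.191. The spots of an array thus lay closer together than the arrays did.

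Cyp1b1, a relative that oxidises polycyclic hydrocarbons and oestradiol outside the liver, went the other way. Its signals were 2215, 2758 and 2735 in iPS M13 and 9246, 12450 and 11197 in mix1. Replicate 1 was the dimmest in both RNAs and the ratios hardly moved, at -2.89, -2.88 and -2.92 (mean -2.90 ± 0.02, limma adjusted p = 7.60e-07). A probe 2658 bases away gave -3.10 ± 0.03. Cyp1a2, the partner of Cyp1a1 in the liver, was measured in part. Its brighter probe had a log2 ratio of -0.05 ± 0.34, and its replicate 1 spot was brighter in both RNAs (211 and 211) than on replicates 2 and 3 (103 and 99.7 in iPS M13, 85.5 and 81.7 in mix1).

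The aryl hydrocarbon receptor acts through the core letters GCGTG in its target promoters, and RefSeq's GRCr8 table of promoters holds that of Cyp1b1. It is shown because Cyp1b1 and Cyp1a1 share this regulator and differed in direction. The 250 bases before the start of Cyp1b1, on the plus strand of chr6:21094315-21094564, read as follows, with GCGTG or its reverse complement in capitals.
Cyp1b1 promoter: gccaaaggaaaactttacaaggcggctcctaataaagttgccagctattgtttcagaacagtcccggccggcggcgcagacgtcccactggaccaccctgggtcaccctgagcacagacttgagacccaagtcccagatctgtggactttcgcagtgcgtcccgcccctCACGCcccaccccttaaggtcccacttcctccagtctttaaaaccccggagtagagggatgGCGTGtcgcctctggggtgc
The letters occurred 2 times, once on each strand. Of 33469 promoters of this length, 8666 (25.9%) hold GCGTG on either strand, so the match is common. The receptor itself, Ahr, was dim in both RNAs, and its partner Arnt was above background on 2 of 3 arrays in each. Tiparp, which the receptor also switches on, was lower in iPS M13 (-1.05 ± 0.01). These 3 genes were named after their values were seen.

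In family 2, Cyp2c7 and Cyp2j9 were higher in iPS M13 and Cyp2d22 was lower. Cyp2c7 belongs to the liver enzymes of subfamily 2c, which hydroxylate steroids and retinoids. Its used probe had signals of 4755, 4816 and 5428 in iPS M13 and 253, 268 and 274 in mix1. The log2 ratios were 3.46, 3.25 and 3.44 (mean 3.38 ± 0.12, limma adjusted p = 4.91e-06). The other 8 genes of the subfamily were dim in both RNAs. The 4 Cyp2c7 probes shown above disagreed in size. By falling position their log2 ratios were 0.66 ± 0.14, 0.12 ± 0.10, 2.01 ± 0.14 and 3.38 ± 0.12, the second of them dim in both RNAs. The first probe was measured in iPS M13 and dim in mix1 on all arrays. The mean over the 3 probes that passed gave 2.02 in place of 3.38, still past 2-fold.

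**Figure D4:**
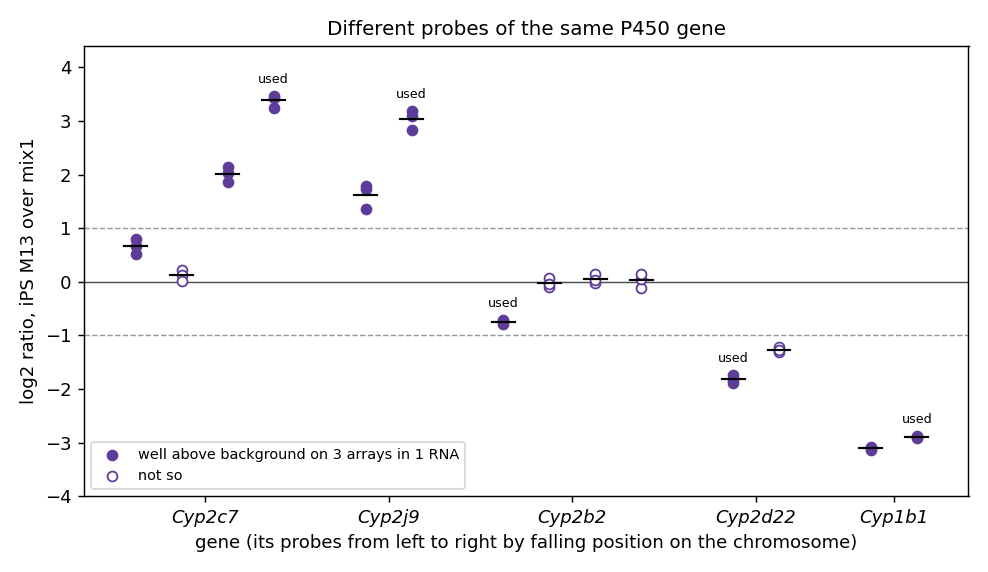
Log2 ratio of iPS M13 over mix1 for every probe of 5 P450 genes by falling position on the chromosome, 1 dot per array with the mean as a bar; filled dots mark probes well above background on all 3 arrays in the same RNA. The Cyp2c7 and Cyp2j9 ratios are largest at the probe of lowest position, and both probes of Cyp1b1 lie near -3.

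Subfamily 2j makes signalling epoxides from arachidonic acid, and 1 of its 2 genes was called. Cyp2j9, which RefSeq now names Cyp2j3, had signals of 1831, 1952 and 1728 in iPS M13 and 138, 141 and 122 in mix1, where it was dim on all arrays. The log2 ratios were 3.10, 2.83 and 3.19 (mean 3.04 ± 0.19, limma adjusted p = 2.03e-05), or 8.22-fold higher by this probe alone. That fold is the plain ratio and no bound, since the dim mix1 signal lay above the floor. A probe 10897 bases away gave 1.62 ± 0.23, so both probes passed 2-fold and differed in size, and the mean over both was 2.33. Cyp2j4 was bright in both RNAs and had a log2 ratio of 0.10 ± 0.03. Cyp2s1, an enzyme of lining epithelia, had ratios of 1.01, 0.77 and 1.07 (mean 0.95 ± 0.16) and was not called. It lay close to the 2-fold threshold and passed it under 8 alternatives, among them median centring (1.38), no scaling within the array (1.33) and leaving out replicate 2 (1.04).

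Cyp2d22, now named Cyp2d4, was the only tested gene of subfamily 2d, whose human counterpart clears many drugs. Its signals of 181, 190.4 and 194 in iPS M13 lay below 454, 514 and 485 in mix1, with a log2 ratio of -1.82 ± 0.07 (limma adjusted p = 6.54e-06). A second probe gave -1.26 ± 0.05 and was too dim to be kept. Cyp2d10, measured in mix1 on 1 array, had an untested ratio of -1.05 ± 0.06, and Cyp2e1, the ethanol-oxidising enzyme, measured in mix1 on 2 arrays, one of -1.32 ± 0.10. Cyp2b2, a phenobarbital-inducible enzyme, was not called at -0.74 ± 0.03 on its used probe. Its other probes, dim in both RNAs, stood at 0.03 ± 0.12, -0.03 ± 0.09 and 0.05 ± 0.08. Nor was Cyp2t1 called at -0.05 ± 0.06, the gene whose sign differed between arrays (limma adjusted p = 0.153). Cyp2u1, measured in part, stood at 0.08 ± 0.04.

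The tested gene of family 3 was Cyp3a13, now named Cyp3a9, a steroid-hydroxylating enzyme. Its signals were 305, 358 and 300.2 in mix1 and 89.5, 86.6 and 93.3 in iPS M13, where it was dim on all arrays. The log2 ratio was -2.15 ± 0.04 (limma adjusted p = 2.09e-06), and the gene was at least 2.58-fold lower in iPS M13. The genes Cyp3a3, Cyp3a11, Cyp3a18 and Cyp3a62, dim in both RNAs, had untested ratios between -0.01 and 0.49.

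Family 4 hydroxylates fatty acids and the eicosanoids made from them. Of its 9 genes, 4 were dim in both RNAs (Cyp4a12, Cyp4a14, Cyp4f2 and Cyp4x1), 1 was higher in iPS M13, 3 were lower and 1 was not called. Subfamily 4f, which inactivates leukotrienes, was divided. Cyp4f4 had signals of 501, 513 and 492 in iPS M13 and 97.1, 86.1 and 101 in mix1, where it was dim. Its log2 ratios were 1.95, 1.68 and 1.85 (mean 1.82 ± 0.14, limma adjusted p = 3.64e-05), and it was at least 3.07-fold higher. Its neighbours Cyp4f5 and Cyp4f6 were measured in both RNAs and were lower on every array. Cyp4f5 had signals of 345, 389.9 and 345 in iPS M13 against 885, 1001 and 852 in mix1 (log2 ratio -1.95 ± 0.09, limma adjusted p = 1.10e-05). Cyp4f6 had 2827, 3043 and 2807 against 8492, 10067 and 7946 (-2.41 ± 0.02, limma adjusted p = 9.25e-07).

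Because these 3 genes lie together on chromosome 7 and differ in direction, the first 30 bases of their probes are shown. Capitals mark the longest run shared with a probe for another P450 gene, which for Cyp4f5 and Cyp4f6 lies past these bases.
Cyp4f4, chr7:13309322-13309381: acctccattctaaTCTCAAAActctcatcc
Cyp4f5, chr7:13133749-13133808: ggcttgtgatgtctaagaccattgaggcag
Cyp4f6, chr7:13609104-13609163: ttgggacctcctcgcccaccctcctacctc
The longest runs of these 3 probes were 8, 9 and 10 bases long and were shared with Cyp4a12, Cyp1a2 and Cyp2c65, not with each other. Cyp4b1, which oxidises short fatty acids and activates some lung toxins, was seen in mix1 only, with signals of 345, 413 and 349.6 there and 91.6, 104 and 95.5 in iPS M13. Its log2 ratio was -2.34 ± 0.17 (limma adjusted p = 3.22e-05), at least 3.05-fold lower. Cyp4a22, now named Cyp4a1, a fatty acid hydroxylase under the receptor Ppara, was not called at -0.51 ± 0.05, and Ppara was dim in both RNAs.

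The enzymes of cholesterol synthesis and breakdown were mostly lower in iPS M13, not called or dim in both RNAs. Cyp51, the lanosterol demethylase and the P450 of cholesterol synthesis, had signals of 21661, 22119.8 and 23074 in iPS M13 and 45496, 49822 and 47072 in mix1. The log2 ratios were -1.67, -1.64 and -1.65 (mean -1.65 ± 0.01, limma adjusted p = 1.41e-06). The pathway around it shared the direction for most of its members. Of 21 genes of cholesterol synthesis, uptake and control that were on the array, all were tested, 14 were lower, 0 higher and 7 not called, with a median log2 ratio of -1.17 beside -0.02 over all genes. The lowest were Lss (-3.75 ± 0.0040), which makes lanosterol, and Sqle (-2.42 ± 0.02), which makes its precursor. Of the genes not called, Dhcr7, the last enzyme of the pathway, stood at 0.66 ± 0.02 and was named after its value was seen, for its opposite sign. Under median centring of the arrays the count of lower genes fell to 9 and 2 were higher.

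Cyp7b1, the oxysterol hydroxylase of the alternative bile acid pathway, had the lowest ratio of the 25 tested genes. Its signals in mix1 were 982, 1025 and 1025, and those in iPS M13 were 87.6, 87.3 and 84.5, near the blank level. The log2 ratios were -4.10, -3.87 and -4.27 (mean -4.08 ± 0.20, limma adjusted p = 1.07e-05), at least 8.49-fold lower in iPS M13. Cyp39a1, which hydroxylates an oxysterol made in the brain, was higher, with 271, 329 and 310.1 in iPS M13 and 77.1, 83.5 and 90.03 in mix1. Its ratio was 1.36 ± 0.14 (limma adjusted p = 9.48e-05), at least 1.96-fold higher. Cyp7a1, the rate-limiting enzyme of classical bile acid synthesis, Cyp8b1, which steers it to cholic acid, and Cyp46a1, the cholesterol hydroxylase of neurons, were dim in both RNAs.

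Of the genes for vitamin D and for the first step of alternative bile acid synthesis, 1 was lower and 2 were not called. Cyp27a1, the mitochondrial sterol hydroxylase, had signals of 120, 315 and 120 in iPS M13 and 409, 631 and 413 in mix1. The replicate 2 spot was brighter than the other two in both RNAs, and its log2 ratio of -1.42 stood apart from -2.31 and -2.34 (mean -2.02 ± 0.52, limma adjusted p = 1.62e-03). Without replicate 2 the mean was -2.32. Spots of the dim genes Cyp2c23, Cyp3a3, Cyp3a62 and Cyp4x1 were also brighter in both RNAs on replicate 2 than on the other arrays, and the reason was not tested. Cyp27b1, which activates vitamin D, stood at 0.16 ± 0.03, and Cyp2r1, which carries out its first hydroxylation and was dim in mix1, at 0.69 ± 0.16. Cyp24a1, which removes active vitamin D, was dim in both RNAs on both probes, as was the vitamin D receptor Vdr, named after its values were seen.

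Both members of family 26, which removes retinoic acid, were measured in at least 1 RNA. Cyp26a1 was seen in mix1, with signals of 361, 386 and 372, and was dim in iPS M13, with 152, 87.7 and 137. Its log2 ratios were -1.74, -2.26 and -1.99 (mean -1.99 ± 0.26, limma adjusted p = 1.83e-04), at least 3.02-fold lower in iPS M13. Cyp26b1 was measured in both RNAs, with 5447, 5377 and 5673 in iPS M13 and 4293, 4527 and 4210.4 in mix1. Before scaling it was thus brighter in iPS M13, and after loess its log2 ratio was -0.46 ± 0.01, not called. Median centring turned it to 0.39, so its direction depended on the scaling.

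The promoter of Cyp26a1 is known for a direct repeat to which retinoic acid receptors bind, and is shown because Cyp26a1 was called and Cyp26b1 was not. The 250 bases before its start in RefSeq's GRCr8 table, on the plus strand of chr1:244883572-244883821, carry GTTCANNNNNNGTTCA on the reverse strand, in capitals.
Cyp26a1 promoter: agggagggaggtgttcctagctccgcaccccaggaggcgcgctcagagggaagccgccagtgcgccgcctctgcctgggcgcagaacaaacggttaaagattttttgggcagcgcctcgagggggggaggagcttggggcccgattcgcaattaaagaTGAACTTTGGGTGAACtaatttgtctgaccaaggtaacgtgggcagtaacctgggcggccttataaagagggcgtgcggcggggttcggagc
The match ends 76 bases before the start. Of 33469 promoters of that length, 126 (0.376%) hold these letters on either strand. Of the retinoid receptors, Rxrg, a dimer partner, was higher in iPS M13 (2.10 ± 0.50). The other dimer partners, Rxra (-0.87 ± 0.06) and Rxrb (-0.67 ± 0.03), were not called, nor were Rara (-0.89 ± 0.04) and Rarb (0.27 ± 0.01). All but Rxrg were named after their values were seen. The retinaldehyde dehydrogenase Aldh1a1, which makes retinoic acid, was at least 4.51-fold higher in iPS M13 (log2 ratio 2.40 ± 0.28), and mix1 was dim there. Its relative Aldh1a3 was dim in both RNAs, and Aldh1a2 was well above background only in mix1 on 1 array. Both were named after their values were seen.

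The steroid hormone enzymes were mostly dim in both RNAs. Of 7 genes, 5 were dim in both RNAs. They were Cyp11a1, which cuts the side chain of cholesterol, Cyp11b2, which makes aldosterone, Cyp17a1, which leads to cortisol and sex steroids, the aromatase Cyp19a1, and Cyp21a1. Cyp11b1, which makes the final glucocorticoid, had signals of 278, 293 and 312 in iPS M13 and 633, 713 and 649 in mix1. Its log2 ratio was -1.72 ± 0.04 (limma adjusted p = 2.75e-06), lower on 3 of 3 arrays. Cyp11b3, a close relative, was measured in part at -0.32 ± 0.05. Of 8 adrenal and gonad markers on the array, 4 were dim in both RNAs. The inhibin subunit Inha was lower (-2.86 ± 0.11), and the cholesterol carrier Star was not called at -0.97 ± 0.06. For Cyp11b1 the array files list 3 RefSeq transcripts, and the part of each in the signal was not tested.

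Cyp20a1, an orphan enzyme with no settled substrate, was bright in both RNAs. Its signals were 12924, 13120.2 and 13555 in iPS M13 and 19836, 21560 and 20020 in mix1. The log2 ratio was -1.34 ± 0.01 (limma adjusted p = 1.95e-06), the smallest SD among the tested P450 genes. It was no longer 2-fold lower under median centring (-0.58) or with no scaling within the array (-0.64).

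The electron donor and heme genes were tested more fully than the P450 genes, whereas only 10 of 21 receptors and regulators were tested. Over all genes tested, 18.8% were called higher and 25.4% lower, and the counts below were not tested against those shares. Of 9 electron donor genes on the array, all were tested, 3 were lower in iPS M13, 0 higher and 6 not called. The lower genes were the cytochrome b5 reductases Cyb5r1 (-4.47 ± 0.28) and Cyb5r3 (-2.87 ± 0.01) and the P450 reductase Por (-2.21 ± 0.03), which gives electrons to nearly all P450 enzymes of the endoplasmic reticulum. Of 12 tested genes of heme synthesis and breakdown, 1 was higher, Cpox (2.65 ± 0.05), a late step of synthesis, 4 were lower and 7 not called. The lower ones included the heme oxygenase Hmox1 (-3.31 ± 0.01) and the biliverdin reductase Blvrb (-2.23 ± 0.01). Of 21 receptors and regulators of P450 genes on the array, 9 were dim in both RNAs, 2 were measured in part, 2 were higher, 3 lower and 5 not called. The higher ones included Rxrg, and lowest was Cebpb (-5.68 ± 0.03), followed by the oxysterol receptor Nr1h3 (-2.05 ± 0.02). Of 11 tested genes of other oxidation and epoxide enzymes, 2 were higher, 8 lower and 1 not called, the lowest being thromboxane synthase Tbxas1 (-4.67 ± 0.08) and the quinone reductase Nqo1 (-4.63 ± 0.04).

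Cell type markers also differed between the RNAs. All 8 fibroblast and all 8 macrophage and marrow markers were lower in iPS M13. Their summed signals were 13894 to 15712 and 4685 to 5054 in iPS M13, against 1366974 to 1495919 and 182767 to 214171 in mix1. Of 6 pluripotency markers, 5 were higher, with summed signals of 30945 to 33761 in iPS M13 and 1596 to 1709 in mix1, while Lin28a was not called (-0.15 ± 0.04). The part of these cell types in each P450 ratio was not tested. Hepatocyte markers summed to 1630.4 to 2464 in iPS M13 and 3515 to 4775 in mix1, sums that include Tf, the only one tested. Ttr, Apoa1, Apoa2 and Serpina1 were dim in both. Alb, Apob and Tat were well above background on 1 array in each RNA, Hnf4a on 2 in each and Fgb on 1 in mix1. Of 7 yolk sac markers, 4 were dim in both RNAs, Afp (3.83 ± 0.18) and Lama1 (1.78 ± 0.14) were higher and Gata6 (-2.49 ± 0.04) was lower. Of 5 adipocyte markers, Adipoq was higher (3.81 ± 0.13) and Fabp4 (-2.01 ± 0.08) and Lpl (-1.90 ± 0.02) were lower.

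The scaling of the arrays moved all ratios. The median log2 ratio of all genes rose by 0.60 under median centring, by 0.55 with no scaling within the array and by 0.31 with the scanner software's processed signals. Of all calls 42.5% were higher after loess, against 67.2%, 65.1% and 56.6% under these settings. Of the P450 calls 29.4% were higher after loess and 35.3%, 35.3% and 36.8% under them, and 16, 16 and 17 of the 17 called P450 genes kept their call. The median of the P450 genes lay below that of all genes in each, by 0.72 after loess and by 0.95, 0.95 and 1.11 under the others. Genes dim in 1 RNA on at least 2 arrays had larger ratios in the processed signals. There Cyp7b1 stood at -5.98, Cyp1a1 at 5.67, Cyp2j9 at 4.81, Cyp4b1 at -4.30, Cyp4f4 at 4.25, Cyp3a13 at -4.01, Cyp26a1 at -3.59, Cyp27a1 at -3.41 and Cyp39a1 at 3.39. Cyp2r1 (1.86) and Cyp2s1 (1.69) were called higher there too.

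**Figure D5:**
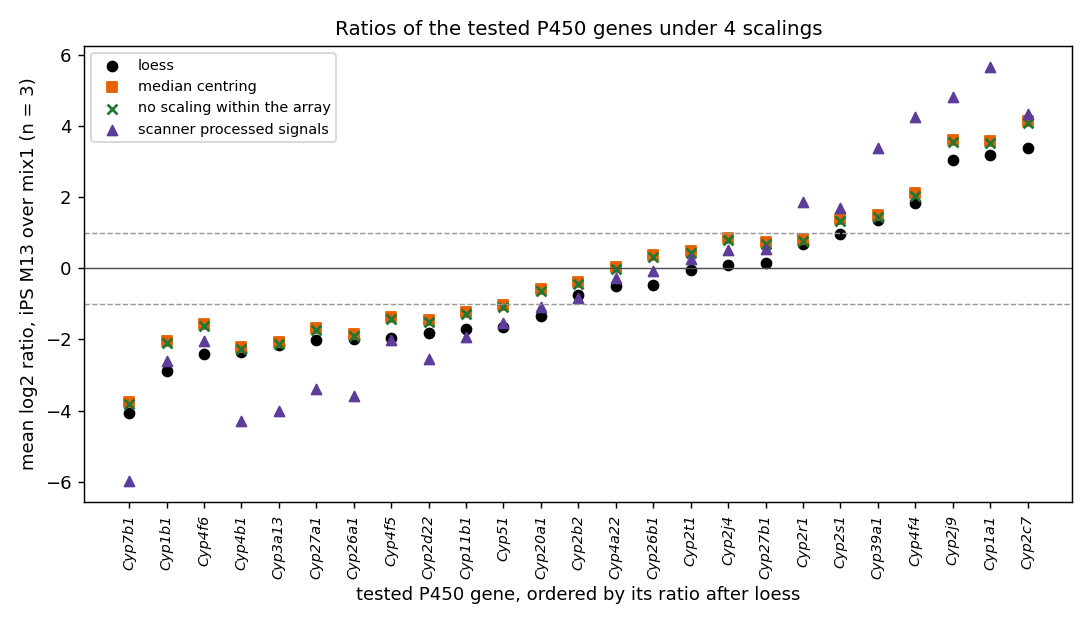
Mean log2 ratios (iPS M13 over mix1, 3 arrays) of the 25 tested P450 genes under 4 scalings, ordered by the ratio after loess; dashed lines mark 2-fold. Cyp26b1, Cyp2t1 and Cyp4a22 cross 0 between scalings, and the genes at both ends do not.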

How the data were processed

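The 3 two-colour Agilent rat arrays, on 1 slide with 1 scan time, held iPS M13 in Cy3 and mix1 in Cy5. Spot intensities were deposited as mean signals and median local backgrounds of each channel, per the file headers, with flags of Agilent Feature Extraction 9.5.3.1. Also in these files are log10 ratios, Cy5 over Cy3, that the software made from its processed signals, as the headers state. The authors' table of values is on a log2 scale. Against the log10 ratios its columns had slopes of -3.32, which reads as Cy3 over Cy5. The column medians were -0.0413, -0.0282 and -0.0286, and its centring stays unknown. Probe positions refer to build rn3. No genome was used here.

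Signals were corrected by normexp (offset 50) and scaled by loess (control spots had weight 0) in limma 3.58.1 (R 4.3.3, data.table in version 1.17.8). The offset shrinks the ratios of dim genes. Outlier spots (192 to 263 per array) were left out, and none was a member's only spot. Of 41012 probes 24177 were kept, those that 1 channel showed well above background on each of the 3 arrays. The brightest kept probe stood for a gene. Of the probes 21303 were named through RefSeq and 19709 kept the file's name, and members kept it too. Well above background probes made up 52.4% to 61.0% of all in a channel. The mean log2 ratio was tested against 0 by lmFit and eBayes (1.57 prior degrees of freedom), which leaves out the spread of mix1, 1 control RNA. An exact sign-flip test on 3 arrays cannot go below p = 0.25 and was not used. The number of arrays limits the precision. The lmFit, eBayes and calling steps were tested on simulated log2 ratios. Signal correction, scaling, the filter on dim probes and the choice of probe were not simulated. Promoters came from RefSeq (GRCr8), matched for 53 of 67 current symbols. Python 3.11.15, pandas 2.3.3, numpy 2.4.6 and matplotlib 3.10.9 were used for tables and plots.

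Named by rule were every called P450 gene, 18 listed P450 genes whatever their result, and the 2 highest and 2 lowest called genes of a partner list, except 1 that is not reported here. The genes and lists were chosen with earlier results of these data known.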

Additional observations from a re-analysis of the deposited data

How the results depend on the processing

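Under the alternatives for signals, scaling, filters, probes and arrays, the 17 called P450 genes kept their call wherever they had a value (7 of them with both channels above background), except Cyp20a1 under median centring and with no scaling within the array. Of 314 values of the 25 tested genes under alternatives, 294 kept direction and side of the threshold, 10 passed it anew, 2 lost it and 8 turned sign. Sign turned for Cyp26b1 (0.39 under median centring, 0.33 with no scaling within the array), for Cyp2t1 (0.49, 0.43, 0.26 with processed signals and with the authors' value table, and 0.31 with the GC trend taken off) and for Cyp4a22 (0.048 under median centring). The median of all genes turned to 0.58, 0.52, 0.29 and 0.29 under median centring, no scaling, processed signals and the value table, which called 7409, 7005, 6321 and 6319 genes higher. The P450 median stood at -0.38, -0.43, -0.82 and -0.82 there, at -0.82 with a normexp offset of 20, -0.038 with no filter on dim probes, -0.63 with both channels above background, -0.86 with the GC trend taken off and -0.92 with members taken by current RefSeq symbol. Leaving out 1 array gave -0.75 to -0.65. Asking for both channels above background left 1 P450 gene higher and 6 lower. The adjusted p alone gave 9 higher (9601 and 9943 of all genes higher and lower), and a 4-fold minimum gave 3 higher and 6 lower (934 and 2697 of all genes). Leaving out 1 array gave 5 to 6 P450 genes higher, 12 to 13 lower and 36 to 37 dim in both RNAs. With the software's flag for signal over background in place of the stricter one, 20 genes were dim in both. Signal over background limits the genes seen in 1 RNA. Their at-least folds are bounds only on arrays where the dim signal lay under the floor. For Cyp2j9 the fold is the fitted ratio. The slide and scan date were not run as a block, since all arrays shared 1 of each. No paired analysis was possible because the 3 samples form 1 group.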

Other observations

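Some rat P450 genes stand on the array under other names and so lay outside the name rule. Matched through RefSeq's table, Cyp4v3, a fatty acid hydroxylase, was lower in iPS M13 at a log2 ratio of -3.65 ± 0.09 (SD, n = 3, limma adjusted p = 2.62e-06), with a second probe at -3.36 ± 0.20. Cyp2j10, another gene of subfamily 2j, was higher (1.60 ± 0.10, limma adjusted p = 2.15e-05) and dim in mix1. Cyp4f17 was lower (-1.01 ± 0.10, limma adjusted p = 9.39e-05) and dim in iPS M13, on the lower side with Cyp4f5 and Cyp4f6. A probe now assigned to Cyp2b15 stood at -0.92 ± 0.02, not called. With members taken by current symbol, 6 genes were higher, 14 lower and 38 of 73 dim in both RNAs.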
